A study of Homo sapiens with 6 samples.

Results

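The genes of the ATF4 and CHOP stress response were examined in Ovcar8 cells, a widely used human line from high-grade serous carcinoma of the ovary. The 10 genes, taken from the count table by symbol, were the transcription factor genes ATF4, ATF5, DDIT3 (which encodes CHOP) and CEBPB, and the genes TRIB3, CHAC1, ASNS, SESN2, DDIT4 and PPP1R15A. They are 10 of 58735 gene rows. All 10 had enough counts for the test, which covered 13772 genes.

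The control libraries (FBS replicates 1 to 3) came from Ovcar8 cells whose medium, RPMI-1640, held 5% fetal bovine serum (FBS), and the serum-starved libraries (replicates 1 to 3) from Ovcar8 cells kept without that serum for 48 h. No allele, drug or transgene is named for either group, and all 6 libraries come from a single cell line. Whether replicates are separate cultures is not stated in the labels. The p-values set the difference between the groups against the spread between these libraries, and it is not known whether that spread includes differences between cultures. The comparison asks which transcripts differ between cells with and without serum, a condition that the study title links to quiescence.

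In the integrated stress response, the kinases PERK, GCN2, PKR and HRI phosphorylate the translation initiation factor eIF2α. General protein synthesis then falls while the mRNA of ATF4 is translated more, through short reading frames in its leader. ATF4 protein binds DNA with partners such as C/EBP proteins and CHOP at sites called C/EBP-ATF response elements. The genes it activates supply amino acids, restrain the growth kinase mTORC1 and, through PPP1R15A (GADD34), reverse the phosphorylation of eIF2α. ATF4 activity is therefore set largely by translation, which mRNA counts do not measure.

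The libraries held 16379416 to 19558484 counts assigned to genes. Levels are in CPM, the count relative to the library's TMM-scaled size, with mean ± SD. A library with 0 counts allows up to 3, or 0.153 to 0.183 CPM. Transcripts low in GC ran above average in FBS replicate 1 (0.79 on the log2 scale in the lowest of 10 GC groups) and below average in serum-starved replicate 1 (-0.70). In the highest of the 10 GC groups the value was 0.48 in serum-starved replicate 1, -0.47 in serum-starved replicate 3 and -0.27 in FBS replicate 1. It was 0.07 to 0.17 in the remaining libraries. Serum-starved replicate 3 ran higher in long transcripts (0.47 in the longest of 10 length groups) and lower in short transcripts (-0.53). Of the 10 genes, 8 had a GC content above the median of 50.7% of the genes tested. Of 10 epithelial markers 8 were tested, and KRT8, KRT18, KRT7, PAX8 and MSLN were well above the floor in all libraries. WT1 (0.748 to 2.69 CPM), EPCAM (1.02 to 3.96 CPM) and CDH1 (0.329 to 0.749 CPM, 5 to 17 counts) were low. KRT19 had 0 to 4 counts and MUC16 had 0 counts throughout. The summed level of the 10 epithelial markers was 7155 to 12083 CPM with FBS and 8531 to 12052 CPM without, most of it KRT8 and KRT18. Of 11 fibroblast, endothelial and leukocyte markers 2 were tested, COL1A1 and VWF, and DCN and CD3E had 0 counts in every library. The sum of these markers was 319 to 578 CPM with FBS and 765 to 833 CPM in starved libraries, nearly all of it COL1A1 (log2 fold change 0.70, edgeR adjusted p = 0.457). VWF, an endothelial gene, had 0.305, 0.477 and 0.260 CPM with FBS and 4.21, 1.32 and 2.64 CPM in starved cells, with no overlap. Its edgeR adjusted p was 0.134, and it was called by DESeq2 (0.0111). The other 9 markers were at or near 0 counts. The part of these markers in the results was not tested. In such bulk RNA, fewer expressing cells and less RNA per cell cannot be told apart.

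The sequences before the start sites show where the letters of known stress response elements occur in these genes. Windows from 250 bases before to 50 bases after each annotated start (RefSeq, GRCh38.p14) were searched on both strands, and all 10 symbols matched. The C/EBP-ATF element was searched as TGATGNAAN, the cyclic AMP response element as TGACGTCA, the endoplasmic reticulum stress element as CCAAT followed after any 9 bases by CCACG, and the CCAAT box, whose letters are part of the latter, as CCAAT. The first stood in the windows of CHAC1 and ASNS and in those of 4.45% of all 27305 genes. The second stood in PPP1R15A and in 2.25% of genes. The third stood in none of the 10 and in 0.0916% of genes. The stretches below are 5′ to 3′ on the gene's strand, with the matched letters in capitals. Those of CHAC1 and ASNS are short because the match lies inside an exon of at least 1 GENCODE 29 transcript.
CHAC1 chr15:40953251-40953279, plus strand, match at position -210 and on the opposite strand: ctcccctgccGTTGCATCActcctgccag
ASNS chr7:97872458-97872486, minus strand, match at position -68: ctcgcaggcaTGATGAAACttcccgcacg
PPP1R15A chr19:48872318-48872391, plus strand, match at position -58: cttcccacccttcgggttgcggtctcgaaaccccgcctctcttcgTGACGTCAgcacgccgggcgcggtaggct

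DDIT4 and SESN2 are shown because their groups did not overlap and they held the CCAAT box but none of the 3 longer elements. Capitals mark CCAAT read on the opposite strand (ATTGG), a common promoter sequence found in 39.7% of all genes searched. It also stood in windows of DDIT3, CHAC1 and CEBPB. SESN2 has a further match at position -151, outside the stretch printed.
DDIT4 chr10:72273804-72273919, plus strand: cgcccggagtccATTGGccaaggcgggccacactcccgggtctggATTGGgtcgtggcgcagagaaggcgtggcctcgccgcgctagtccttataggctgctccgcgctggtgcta
SESN2 chr1:28259398-28259517, plus strand: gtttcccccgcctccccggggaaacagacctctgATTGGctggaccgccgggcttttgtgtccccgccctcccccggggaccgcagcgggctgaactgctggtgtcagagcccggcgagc
TRIB3, whose groups also did not overlap, held none of the 4 sequences in any of its 3 windows and is not printed. A match is only these letters, and a window without it says nothing of a factor's binding. The known elements of several of these genes can lie in introns or farther upstream, outside these windows.

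Of the 10 genes, 1 was called higher in starved cells, DDIT4, and 0 were called lower, by edgeR's quasi-likelihood test at an adjusted p under 0.05. Of all 13772 genes tested, 0.24% were called higher and 0.0436% lower, 0.283% in all. At an unadjusted p under 0.05 there were 4, DDIT4, TRIB3, SESN2 and CHAC1, all with a positive change, against 6.01% of all genes in that direction and 10.4% in either. In DDIT4, TRIB3 and SESN2 every starved library lay above every FBS library, which was so for 10% of all genes. The other 7 overlapped, and 0 lay apart with lower starved values, against 7.65% of all genes (17.7% in either direction). A log2 fold change of at least 1 was found in 5 of the 10 and in 4.65% of all genes. Without serum-starved replicate 2 it was found in 2 of the 10, DDIT4 and TRIB3, and in 6.33% of all genes. With DESeq2 3 of the 10 were called, DDIT4, TRIB3 and SESN2, against 0.91% of all genes called higher. The same 3 were called when each library was corrected for GC content and transcript length (0.588% of all genes) and without serum-starved replicate 1 (0.412%) or 3 (0.875%). None of the 10 was called with library totals alone, limma-voom or limma on FPKM, or without FBS replicate 1, 2 or 3 or serum-starved replicate 2, with 3 or 4 genes at an unadjusted p under 0.05 in each of these fits. The median log2 fold change was 0.85 over the 10 genes and -0.02 over all genes tested. Without serum-starved replicate 2 these medians were 0.06 and -0.03, and with limma-voom 0.34 and -0.07. Serum-starved replicate 2 held the highest value of the 6 libraries for 8 of the 10, all but ATF5 and PPP1R15A, against 10.6% of all genes. That library therefore bears on every mean of the starved group given below.

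**Figure D1:**
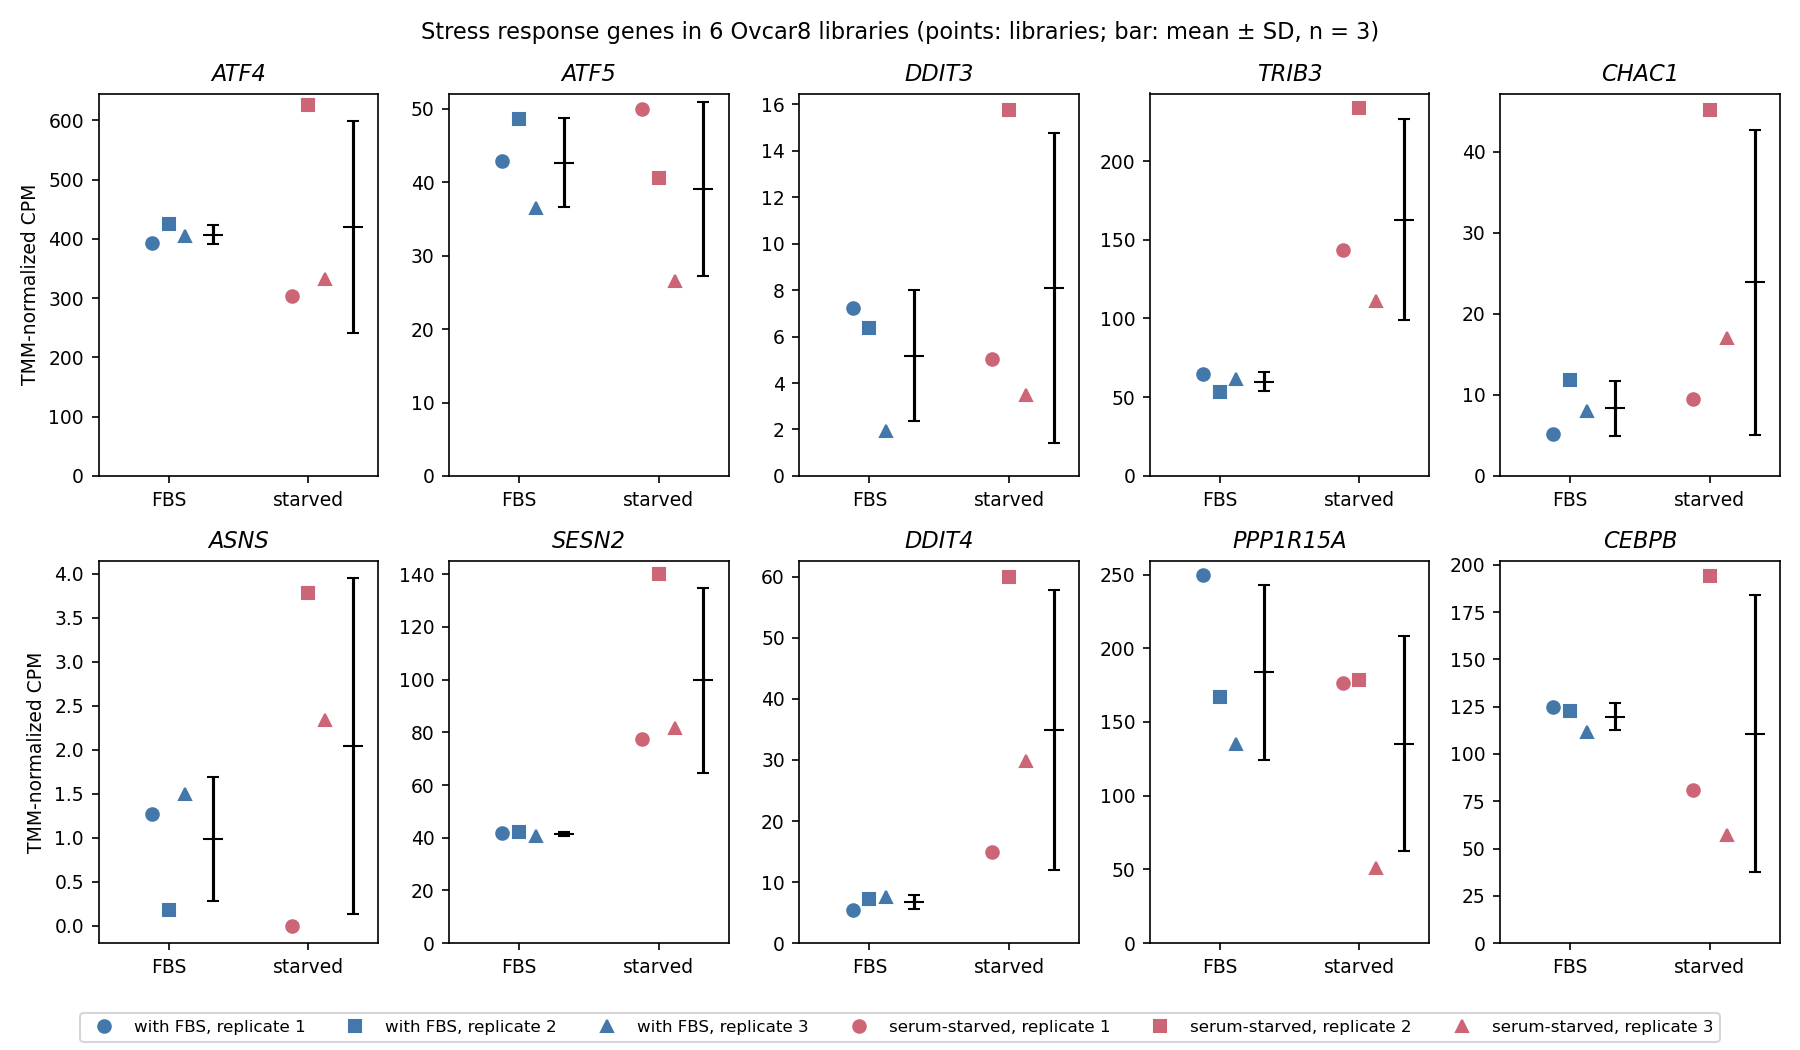
Level of each of the 10 genes in CPM (y axis, linear) in the 3 libraries with FBS (blue) and the 3 serum-starved libraries (red), 1 panel per gene, marker shape giving the replicate and black bars the mean ± SD. The groups are apart in TRIB3, SESN2 and DDIT4 and overlap in the other 7, and serum-starved replicate 2 is the highest point in 8 panels.

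ATF4 (chr22:39519695-39522685, plus strand, protein coding) had the highest level per length of the 10 genes. Its level was 392, 424 and 405 CPM in FBS replicates 1 to 3 and 304, 626 and 332 CPM in the serum-starved libraries. Serum-starved replicate 2 lay above all FBS libraries and the other 2 starved libraries lay below all of them. The means were 407 ± 16.1 CPM (n = 3) with FBS and 421 ± 179 CPM (n = 3) without, with a log2 fold change of 0.05 (SE 0.33, edgeR adjusted p = 0.977). Without serum-starved replicate 2 the log2 fold change was -0.36. The difference in ATF4 transcript was within the spread between libraries, which was wide in the starved group.

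ATF5 (chr19:49928702-49933935), a relative of ATF4 that is likewise regulated through its leader, stood at 42.9, 48.6 and 36.5 CPM with FBS. The starved libraries had 50.02, 40.6 and 26.5 CPM, 1 above, 1 within and 1 below the FBS range. The log2 fold change was -0.13 (SE 0.30, edgeR adjusted p = 0.921). ATF5 overlaps NUP62 on the opposite strand, which had 2659 to 4266 counts. Whether the counting used strand is not given in the sources used here, so reads from ATF5 and NUP62 may not be separated.

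DDIT3 (chr12:57516588-57521737) encodes CHOP, which ATF4 induces and which is known for its part in cell death under prolonged stress. Its level was 7.21, 6.37 and 1.95 CPM with FBS and 5.03, 15.8 and 3.48 CPM in starved cells. Only serum-starved replicate 2 lay above the FBS range. The means were 5.18 ± 2.83 CPM (n = 3) and 8.09 ± 6.68 CPM (n = 3), a log2 fold change of 0.64 (SE 0.56, edgeR adjusted p = 0.749). Without serum-starved replicate 2 it was -0.30. DDIT3 overlaps MARS, with 5592 to 11144 counts, and MBD6, with 492 to 1274 counts, both on the opposite strand. Its own 30 to 287 counts may therefore hold reads from those genes.

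CEBPB (chr20:50190734-50192689), a C/EBP factor that pairs with ATF4, had 125, 123 and 112 CPM with FBS. It had 80.7, 194 and 57.2 CPM in starved cells, so 1 starved library lay above and 2 below the FBS range, as for ATF4. The log2 fold change was -0.11 (SE 0.37, edgeR adjusted p = 0.945) and ran from -0.80 to 0.20 when single libraries were left out.

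DDIT4 (chr10:72273920-72276036) encodes REDD1, an inhibitor of mTORC1 that acts through the TSC complex and is induced by hypoxia, glucocorticoids and ATF4. It rose from 5.39, 7.21 and 7.54 CPM in FBS replicates 1 to 3 to 14.9, 59.9 and 29.8 CPM in the starved libraries. The lowest starved library was above the highest FBS library, and the starved libraries themselves were spread widely. The means were 6.71 ± 1.16 CPM (n = 3) and 34.8 ± 22.9 CPM (n = 3), 5.20-fold higher in starved cells. On the log2 scale this was 2.38 with an SE of 0.43, and the adjusted p of edgeR was 0.0225. The counts were 106, 121 and 116 with FBS and 219, 1091 and 676 without. The call was lost without FBS replicate 1 (log2 fold change 2.24, edgeR adjusted p = 0.436), FBS replicate 2 (2.44, 0.0779), FBS replicate 3 (2.48, 0.0837) or serum-starved replicate 2 (1.73, 0.233). It was also lost with library totals alone (0.123), limma-voom (0.0565) and limma on the FPKM values (0.0754 to 0.719), while the log2 fold change stayed between 1.73 and 2.75 in all 18 alternatives.

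SESN2 (chr1:28259527-28282491) encodes sestrin 2, a leucine sensor that restrains mTORC1 through the GATOR complexes. With FBS the 3 libraries were close together, at 41.6, 42.1 and 40.8 CPM. The starved libraries had 77.3, 140.1 and 81.6 CPM, all above them. The means were 41.5 ± 0.666 CPM (n = 3) and 99.7 ± 35.1 CPM (n = 3), a log2 fold change of 1.26 (SE 0.30) that did not pass the test (edgeR adjusted p = 0.111). It passed in 5 of 18 alternatives, among them DESeq2 (0.00816), the correction for GC content and length (log2 fold change 1.21, 0.0391) and the fits without serum-starved replicate 1 (0.0347) or 3 (0.00614).

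TRIB3 (chr20:362835-397559), a pseudokinase gene induced by ATF4 and CHOP whose protein in turn restrains ATF4, had 64.7, 53.1 and 61.6 CPM with FBS. It had 143, 234 and 111 CPM in starved cells, again with no overlap. The means were 59.8 ± 6.0 CPM (n = 3) and 163 ± 63.7 CPM (n = 3), with a log2 fold change of 1.44 (SE 0.32, edgeR adjusted p = 0.0689). TRIB3 passed in 6 of 18 alternatives. These included DESeq2 (0.00164), the correction for GC content and length (log2 fold change 1.34, 0.0247) and the fits without serum-starved replicate 1 (0.0347) or 3 (0.000858).

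CHAC1 (chr15:40952962-40956519) encodes an enzyme that degrades glutathione, a late target in the ATF4 and CHOP cascade. Its level was 5.13, 11.9 and 8.06 CPM with FBS and 9.52, 45.2 and 17.0 CPM in starved cells. The lowest starved library lay below FBS replicate 2, so the groups overlapped. The means were 8.35 ± 3.37 CPM (n = 3) and 23.9 ± 18.8 CPM (n = 3), with a log2 fold change of 1.52 (SE 0.48, edgeR adjusted p = 0.288). Without serum-starved replicate 2 the log2 fold change was 0.66. Its log2 fold change is larger than that of TRIB3 or SESN2 but less precise.

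ASNS (chr7:97852118-97872542), asparagine synthetase, is a textbook target of the amino acid branch of this response. It was close to the detection limit in these cells, with 25, 3 and 23 counts in FBS replicates 1 to 3. Serum-starved replicates 1 to 3 had 0, 69 and 53 counts, where 0 allows up to 0.174 CPM. These are 1.27, 0.179 and 1.49 CPM against 0, 3.79 and 2.33 CPM, and both groups spanned a wide range relative to their means. The log2 fold change was 1.06 (SE 0.99, edgeR adjusted p = 0.763), so no difference was detectable at this depth. It ran from 0.27 (without serum-starved replicate 2) to 1.64 when single libraries were left out.

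PPP1R15A (chr19:48872392-48876057) encodes GADD34, the phosphatase subunit that closes the feedback loop on eIF2α. It had 249, 167 and 135 CPM with FBS and 176, 179 and 50.9 CPM in starved cells. In 2 starved libraries it lay within the FBS range and in serum-starved replicate 3 it was below it. The log2 fold change was -0.44 (SE 0.40, edgeR adjusted p = 0.756), negative in all 18 alternatives and called in none of them.

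**Figure D2:**
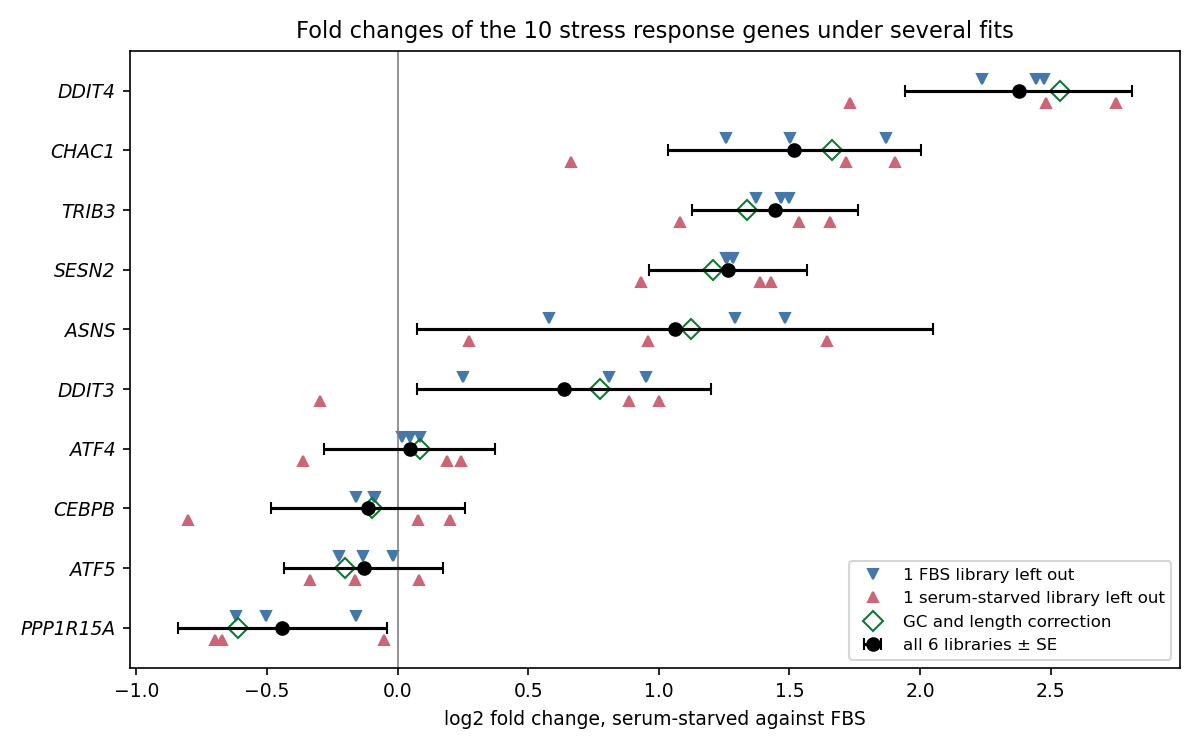
Log2 fold change of the 10 genes in serum-starved against FBS libraries (x axis; genes on the y axis), as black points with the SE from edgeR for all 6 libraries, triangles for the fits that leave out 1 FBS (blue) or starved (red) library, and open diamonds for the GC and length correction. DDIT4 has the largest value, 2.38, and the values of ATF4, ATF5, DDIT3 and CEBPB fall on both sides of 0.

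Between genes, levels can be set side by side only per length, and here the deposited FPKM values were used. With FBS the order of the means was ATF4 (158 ± 7.97 FPKM, n = 3), CEBPB (59.7 ± 3.27), PPP1R15A (57.8 ± 17.9), TRIB3 (17.0 ± 1.54), ATF5 (14.1 ± 2.05), SESN2 (11.7 ± 0.238), CHAC1 (3.97 ± 1.64), DDIT3 (3.86 ± 2.09), DDIT4 (3.18 ± 0.581) and ASNS (0.214 ± 0.154). CEBPB and PPP1R15A did not differ beyond their spread, and neither did CHAC1, DDIT3 and DDIT4. In starved cells the means ran ATF4 (163 ± 68.8 FPKM, n = 3), CEBPB (55.2 ± 36.4), TRIB3 (46.2 ± 18.0), PPP1R15A (42.7 ± 23.1), SESN2 (28.1 ± 9.84), DDIT4 (16.5 ± 10.8), ATF5 (12.9 ± 3.94), CHAC1 (11.3 ± 8.87), DDIT3 (6.03 ± 4.97) and ASNS (0.446 ± 0.417). Most neighbours in that order overlapped. ATF5 lay above SESN2 in all 3 FBS libraries, at 13.97, 16.20 and 12.11 FPKM against 11.60, 11.99 and 11.56 FPKM. SESN2 lay above ATF5 in all 3 starved libraries. DDIT4 lay above CHAC1 in all 3 starved libraries and in 1 of 3 FBS libraries.

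Because ATF4 itself varied between the starved libraries, each gene was also expressed as a percent of the ATF4 FPKM of the same library. This view was chosen after the values were seen and is given without a test. SESN2 was 7.72, 7.22 and 7.32% of ATF4 with FBS and 18.5, 16.3 and 17.9% in starved cells. The starved libraries thus differed little in this ratio. Its coefficient of variation there was 6.56%, against 35.0% for the SESN2 FPKM alone. For TRIB3 it was 18.1% against 39.0%. It was also smaller as a ratio for DDIT4 (32.5% against 65.6%), CHAC1 (39.6% against 78.5%), CEBPB (28.2% against 66.0%), DDIT3 (42.4% against 82.4%) and ASNS (87.3% against 93.6%). Only for ATF5 (52.2% against 30.6%) and PPP1R15A (64.4% against 54.1%) was it larger. TRIB3 was 12.1, 9.17 and 11.1% of ATF4 with FBS and 34.6, 27.3 and 24.5% in starved cells. DDIT4 was 1.68, 2.07 and 2.27% with FBS and 5.99, 11.7 and 10.96% without. CHAC1, which overlapped as a level, was 1.60, 3.41 and 2.43% with FBS and 3.83, 8.81 and 6.26% without, and did not overlap. The divisor matters here. ATF4 was 118 and 128 FPKM in serum-starved replicates 1 and 3, below the 150 to 166 FPKM with FBS, which raises every ratio in those libraries. As a level CHAC1 was 4.53 FPKM in serum-starved replicate 1, below the 5.67 FPKM of FBS replicate 2. How many of all genes lie apart, or vary less, as a ratio to ATF4 was not computed. The ratios of CEBPB, PPP1R15A, ATF5, DDIT3 and ASNS overlapped between the groups.

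**Figure D3:**
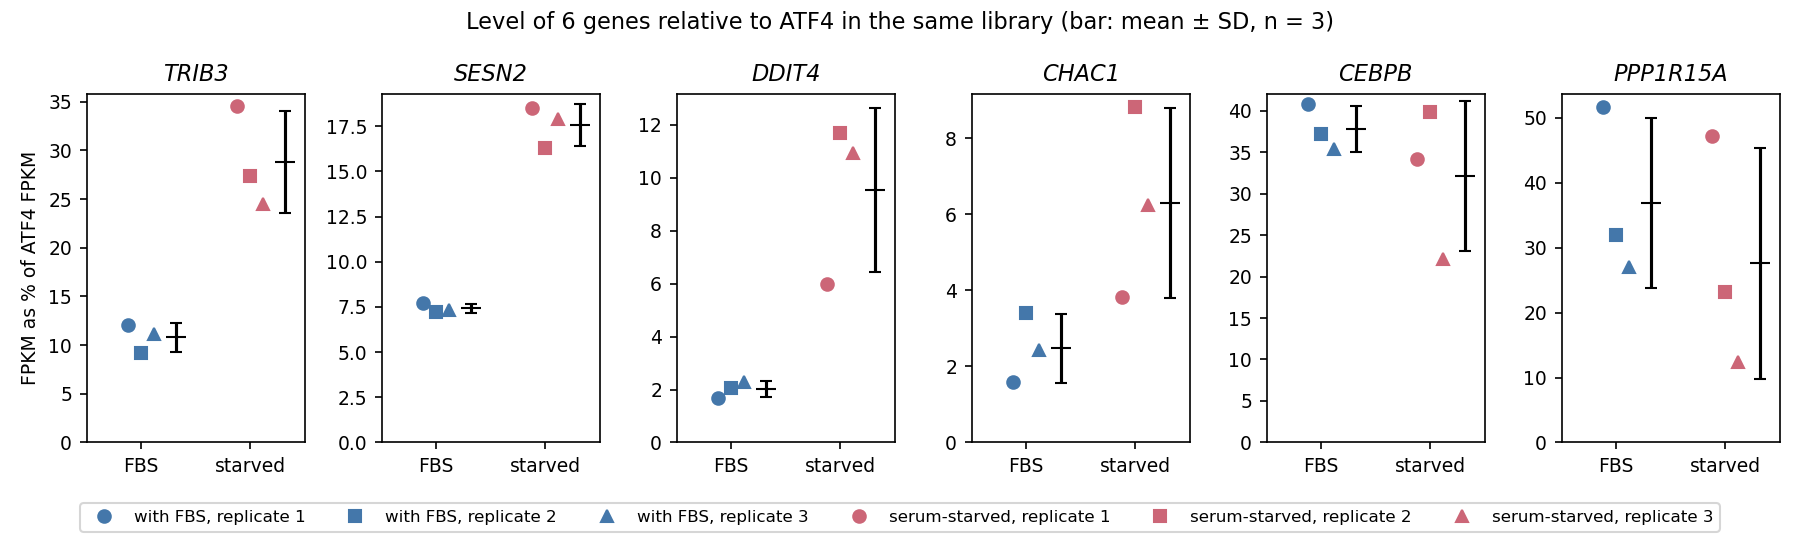
FPKM of 6 genes as a percent of the ATF4 FPKM of the same library (y axis, linear, 1 panel per gene), for the 3 FBS libraries (blue) and the 3 serum-starved libraries (red), with black bars for the mean ± SD. TRIB3, SESN2, DDIT4 and CHAC1 have all starved points above all FBS points, and CEBPB and PPP1R15A overlap.

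Over the 6 libraries, some of the genes ran side by side in log2 CPM. These are descriptions over 6 points that share the libraries and include the difference between the groups. TRIB3 and SESN2 correlated at a Pearson r of 0.977, SESN2 and DDIT4 at 0.971, TRIB3 and DDIT4 at 0.908 and CHAC1 and DDIT4 at 0.920. ATF4 ran closest to CEBPB (0.892), followed by DDIT3 (0.651) and CHAC1 (0.642), with lower values for DDIT4 (0.395), SESN2 (0.366) and TRIB3 (0.314). ATF5 and PPP1R15A correlated at 0.863, and DDIT4 and PPP1R15A at -0.403.

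The leaders of the mRNAs, where translation of ATF4 is controlled, were counted for start codons (ATG) before the annotated coding start in 1 GENCODE 29 transcript per gene. ATF4 had 7 in a leader of 882 bases, TRIB3 and DDIT3 had 3 each, ATF5, ASNS and PPP1R15A had 2 each and SESN2 had 1. DDIT4, CHAC1 and CEBPB had none. An upstream ATG was present in 7 of the 10 genes and in 50.4% of 12170 tested protein-coding genes. At least 2 were present in 6 of the 10 and in 28.9% of those genes. The count depends on the transcript chosen and on its annotated start, and the leader of CHAC1 has only 20 bases in the transcript used.

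The upstream kinases and the eIF2 machinery (PERK, GCN2, PKR, HRI, eIF2, eIF2B and their regulators) were represented by 19 genes. None of the 19 was called by edgeR, DESeq2 or limma-voom, and 1 in each direction had an unadjusted p under 0.05 in edgeR. Their median log2 fold change was -0.08, near the -0.02 of all genes. The extremes were GCN1, an activator of GCN2, at 0.73 (SE 0.35, edgeR adjusted p = 0.477) and EIF2S1, which encodes eIF2α, at -0.73 (SE 0.31, edgeR adjusted p = 0.419). Of 12 other ATF and C/EBP factors none was called by the 3 tools, with 1 in each direction at an unadjusted p under 0.05 and a median of -0.14. ATF3, a stress-induced repressor, stood at 1.02 (SE 0.45, edgeR adjusted p = 0.434) and ATF1 at -1.16 (SE 0.46, edgeR adjusted p = 0.396).

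The amino acid branch of ATF4 targets held the next call. Among 8 transporters, SLC1A4, a carrier of neutral amino acids such as alanine and serine, rose from 16.1, 20.7 and 23.6 CPM with FBS to 39.6, 59.7 and 77.2 CPM in starved cells. Every starved library lay above every FBS library, with a log2 fold change of 1.55 (SE 0.32, edgeR adjusted p = 0.0480). All 8 transporters had positive fold changes with a median of 0.64, and 4 had an unadjusted p under 0.05, against 6.01% of all genes with a positive change. SLC6A9, a glycine transporter, was at 1.67 (SE 0.49, edgeR adjusted p = 0.256) and SLC3A2, the heavy chain of several exchangers, at 0.15 (SE 0.32, edgeR adjusted p = 0.915). The direction of SLC3A2 turned without serum-starved replicate 2 (-0.10) and with the GC and length correction (-0.02). The call of SLC1A4 was lost without FBS replicate 1 (0.577), 2 (0.222) or 3 (0.161) and without serum-starved replicate 2 (0.225). It was also lost with library totals alone (0.181), limma-voom (0.0595) and limma on FPKM (0.108 to 0.699).

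Of 11 amino acid and one-carbon enzymes none was called by edgeR, DESeq2 or limma-voom. In edgeR 1 had an unadjusted p under 0.05, 9 fold changes were positive and the median was 0.27. GPT2, an alanine aminotransferase, was at 0.80 (SE 0.29, edgeR adjusted p = 0.335) and MTHFD2, a mitochondrial folate enzyme, at -0.19 (SE 0.36, edgeR adjusted p = 0.900). Of 10 tRNA synthetases none was called by the 3 tools, 2 had an unadjusted p under 0.05, 9 fold changes were positive and the median was 0.35. In 5 of the 10 the groups did not overlap, all higher, against 10% of all genes. GARS, for glycine, was at 0.85 (SE 0.31, edgeR adjusted p = 0.350) and NARS, for asparagine, at -0.26 (SE 0.39, edgeR adjusted p = 0.874), which turned to 0.11 without serum-starved replicate 1.

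**Figure D4:**
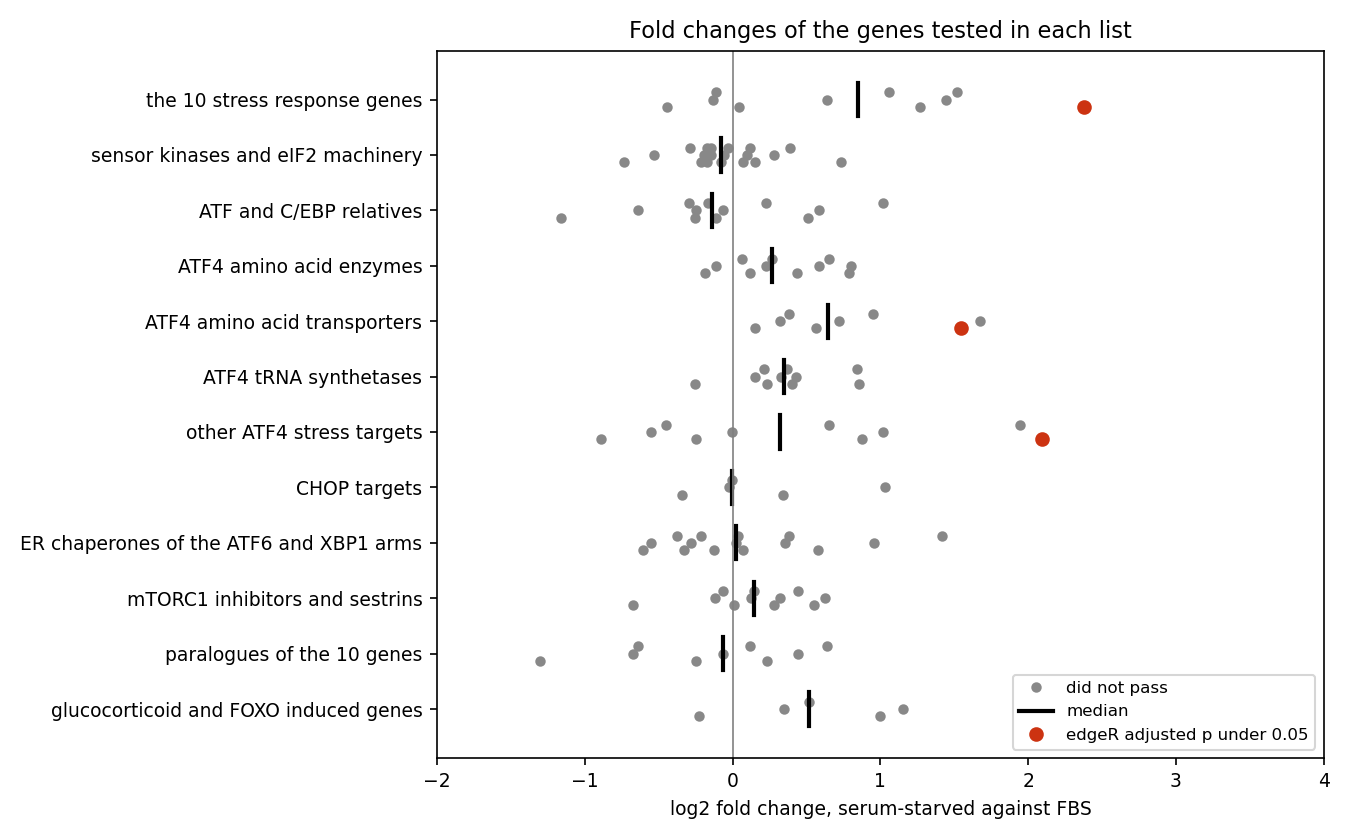
Log2 fold change in serum-starved against FBS libraries (x axis) of each tested gene in 12 lists (y axis), with a vertical bar at the list's median and red points for an edgeR adjusted p under 0.05. The 3 red points are DDIT4, SLC1A4 and ADM2, and the medians run from -0.14 in the ATF and C/EBP relatives to 0.85 in the 10 stress response genes.

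Among other ATF4 targets under stress, 10 of 13 were tested, and NUPR1, GDF15 and FGF21 were below the filter. ADM2, which encodes a secreted peptide of the calcitonin family, rose from 4.17, 4.89 and 4.94 CPM with FBS to 15.6, 28.5 and 15.5 CPM in starved cells. The starved values lay well apart from the FBS values, 4.26-fold higher. On the log2 scale this was 2.09 with an SE of 0.38, and the adjusted p of edgeR was 0.0225. The call was lost without FBS replicate 1 (0.316), 2 (0.137) or 3 (0.108) and without serum-starved replicate 2 (0.225). It was also lost with library totals alone (0.0911) and with limma on log2(FPKM + 1) without a filter. In this list 4 genes had an unadjusted p under 0.05, all higher, against 6.01% of all genes, 5 fold changes were positive and 5 negative, and the median was 0.32. ATF3, 1 of these 4, and CEBPG were also counted among the ATF and C/EBP factors above. DESeq2 called 2 genes of the list and limma-voom 1. The second called by DESeq2 was VLDLR, a lipoprotein receptor named here after its values were seen, at 1.94 (SE 0.52) with an adjusted p of 0.178 in edgeR and 0.0314 in DESeq2, and 0.0379 in edgeR without serum-starved replicate 1. KLHL24 had the lowest value, at -0.89 (SE 0.92, edgeR adjusted p = 0.791) on 0 to 33 counts.

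Of 5 genes listed as CHOP targets none was called by edgeR, DESeq2 or limma-voom, 1 had an unadjusted p under 0.05 and 2 fold changes were positive. BBC3, which encodes the cell death protein PUMA, was at 1.03 (SE 0.45, edgeR adjusted p = 0.426) and DNAJC3, a chaperone that inhibits PERK, at -0.34 (SE 0.49, edgeR adjusted p = 0.865). The value of DNAJC3 was 0.07 without FBS replicate 1. Whether CHOP controls DNAJC3 was not tested. The chaperones and folding enzymes of the ATF6 and XBP1 arms of the unfolded protein response had fold changes in both directions. None of 15 was called by edgeR or limma-voom and 1, HERPUD1, by DESeq2. In edgeR 1 had an unadjusted p under 0.05, 8 fold changes were positive and 7 negative, and the median was 0.02. HERPUD1, a degradation factor of the endoplasmic reticulum that ATF4 also induces, was at 1.42 (SE 0.34, edgeR adjusted p = 0.109) and SDF2L1 at -0.61 (SE 0.34, edgeR adjusted p = 0.556).

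DDIT4 and SESN2 belong to a larger group of mTORC1 inhibitors. Of 11 other tested members of that group none was called by edgeR, DESeq2 or limma-voom, and 0 had an unadjusted p under 0.05 in edgeR. The median was 0.14. CASTOR2, an arginine sensor, was at 0.63 (SE 0.45, edgeR adjusted p = 0.681), and SESN1, the p53-induced relative of SESN2, at -0.68 (SE 1.05, edgeR adjusted p = 0.874) on 0 to 28 counts. Of 9 tested paralogues of the 10 genes none was called by the 3 tools, and the 1 with an unadjusted p under 0.05 was CHAC2, at -1.30 (SE 0.48, edgeR adjusted p = 0.352), opposite in sign to CHAC1. TRIB1 was at 0.64 (SE 0.31, edgeR adjusted p = 0.495). DDIT4 is also a target of glucocorticoid receptor and FOXO factors. Of 5 tested genes of that kind none was called by the 3 tools, and the median was 0.52. In edgeR 2 had an unadjusted p under 0.05, both higher, against 6.01% of all genes with a positive change. These 2, TSC22D3 and IRS2, also had groups that did not overlap, which was so in that direction for 10% of all genes. IRS2, named here after its values were seen, was at 1.00 (SE 0.29, edgeR adjusted p = 0.256). TSC22D3 was at 1.15 (SE 0.40, edgeR adjusted p = 0.321) and FKBP5 at -0.23 (SE 0.37, edgeR adjusted p = 0.880), which turned to 0.11 without FBS replicate 1.

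The genes whose profile over the 6 libraries was most like that of DDIT4 were sought among 9239 genes with a mean of at least 5 CPM, by the Pearson correlation of log2 CPM. They were HERPUD1 (r = 0.992), WARS, the tryptophan tRNA synthetase (0.985), JOSD1, a deubiquitinase (0.982), ZCCHC14 (0.977) and ZNF329 (0.972). HERPUD1 had 43.4, 54.0 and 54.3 CPM with FBS and 84.6, 210.5 and 109.7 CPM in starved cells. The order of its libraries matched that of DDIT4, with FBS replicate 1 lowest and serum-starved replicate 2 highest. The log2 fold changes of the other 4 were 0.33 to 0.43, far smaller than that of DDIT4. None of the 5 was called by edgeR (HERPUD1 adjusted p = 0.109), while HERPUD1 was called by DESeq2 (0.00945) and with the GC and length correction (0.0255). A high correlation here describes the order and spacing of the libraries, not the size of the change.

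**Figure D5:**
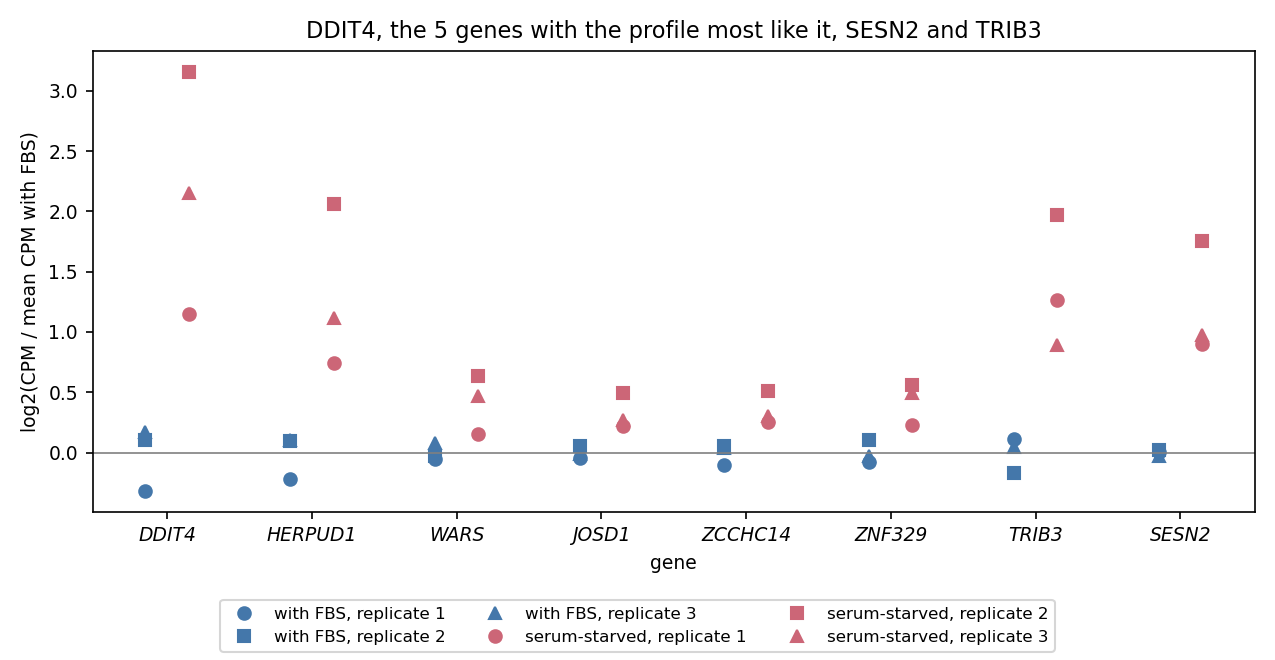
Level of DDIT4, the 5 genes most like it, TRIB3 and SESN2 in each library as log2 of CPM over the mean CPM with FBS (y axis; genes on the x axis), blue for FBS and red for serum-starved libraries. Serum-starved replicate 2 (square) is the highest red point in every gene shown, and in DDIT4 and its 5 like genes serum-starved replicate 1 (circle) is the lowest red point.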

How the data were processed

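Both groups had 3 libraries, assigned by the treatment in the labels. The submitters' processing notes name STAR 2.6.1, DESeq2 and GRCh38 without their roles; counter and strand use are not stated there. Per the file headers, the authors deposited raw counts and FPKM values for each gene, whose 58735 IDs and positions all matched GENCODE 29. The deposited FPKM carry a between-library scaling by DESeq2 size factors (ratio 1 when recomputed). Genes passing filterByExpr (count 10, total 15) were TMM-scaled and tested with edgeR 4.0.16 in R 4.3.3 (quasi-likelihood with robust estimation, Benjamini-Hochberg over 13772 genes, threshold 0.05). An SE is the log2 fold change over the root of F. The biological coefficient of variation was 36.3%. Alternatives, 18 in all, used DESeq2 1.42.0, limma 3.58.1 (voom, or FPKM plus 1 or 0.1 in log2, filtered at a mean of 0.5 FPKM or unfiltered), other scalings and filters, a replicate block, each library left out, and splines on GC and length (5 degrees of freedom). Floors cover counting error only, since duplicates of a molecule cannot be recognised.

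The members and lists were chosen with earlier results of these data known. Of each list, the genes that passed (at most 4) and those with the largest and smallest log2 fold change are named, with all 10 members and the 5 genes most like DDIT4. Some genes, such as ATF3, CEBPG and SESN1, stand in several lists, so the counts of the lists are not separate observations. Promoter sequences are RefSeq's.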

Additional observations from a re-analysis of the deposited data

How the results depend on the processing

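The count of all genes called, 39, was 25 with library totals alone, 127 without a low-count filter, 160 with DESeq2 (802 genes had no adjusted p), 2 on log2(FPKM + 1) without a filter, 107 with the GC and length correction and 145 with that correction and the replicate block, and 4 (without FBS replicate 1) to 257 (without serum-starved replicate 3) with 1 library left out. Of the 10 stress response genes, 1 called, the count was 0 with library totals, limma-voom and limma on the 3 forms of FPKM (3 or 4 at an unadjusted p under 0.05), 4 without a low-count filter, 3 with DESeq2, 3 with the GC and length correction, 2 with the correction and block, and 0 to 3 with 1 library left out. In the pathway lists, 2 called, it was 0 with library totals and on log2(FPKM + 1) without a filter, 1 with limma-voom and with the other FPKM fits, 4 with DESeq2, 4 with the correction and block, and 0 to 4 with 1 library left out; these list counts were added after seeing the data.

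Directions turned only in genes with no call. ATF4 was at -0.0329 with limma-voom, -0.0341 with the replicate block, -0.0322 on log2(FPKM + 1) with or without a filter, -0.0328 on log2(FPKM + 0.1), and -0.36 to 0.24 with 1 library left out. The range with 1 library left out was -0.34 to 0.0833 for ATF5, -0.30 to 1.00 for DDIT3, -0.80 to 0.20 for CEBPB, -0.49 to 0.18 for MTHFD2, -0.10 to 0.38 for SLC3A2, -0.53 to 0.11 for NARS, -1.16 to 0.073 for DNAJC3 and -0.42 to 0.11 for FKBP5. With the GC and length correction SLC3A2 was at -0.0182 (-0.032 with the block) and DNAJC3 at 0.0022. The cause was not tested. DDIT4, TRIB3, SESN2 and CHAC1 were above 0 and PPP1R15A below 0 in all 18 alternatives. ASNS was below the FPKM filter. No pairing by replicate number was visible (correlations of deviations -0.26, 0.10 and -0.08 between same-numbered libraries). These values cannot tell whether same-numbered libraries were prepared together. With the replicate block 43 genes and 1 of the 10 were called. The SE ranged from 0.30 (SESN2) to 0.99 (ASNS, at 0 to 69 counts) in log2.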
